A study of Mus musculus with 25 samples.

Results

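The numbered zinc finger protein genes are the mouse genes whose symbol is Zfp followed by a number. Zfp36, which codes for an RNA-binding protein that speeds the decay of cytokine messages and belongs to another zinc finger family, was left out. Of 24411 gene symbols in the count files, 337 had such a name, and the 230 with 100 or more counts summed over the 21 files of bone marrow-derived macrophages (BMDMs) were taken as members, which were thus chosen by their summed counts. Another 106 fell under that limit, 21 of them with no count in any BMDM file. Just outside the limit lay Zfp772 (90 counts), Zfp7 (92), Zfp882 (94) and Zfp449 (99), and just inside it lay Zfp532 (100 counts), Zfp606 (101), Zfp937 (102) and Zfp446 (102). The limit was set on the summed level in BMDMs and used no difference between BMDM groups. Without their highest BMDM group, several members would have lain under it. Among them were Zfp382 (78 counts), Zfp41 (82), Zfp931 (97), Zfp937 (70), Zfp105 (75), Zfp606 (78), Zfp532 (79) and Zfp446 (81). Differences between BMDM groups in such members are a description, as are any calls of theirs in the counts below.

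The 25 samples of RNA-seq counts covered 9 conditions. BMDMs came from C57BL/6 mice, spent 4 days in M-CSF (25 ng/ml), the growth factor that turns marrow precursors into macrophages, and formed 7 groups of 3. These were control cells cultured for 4 h, cells given IFN-γ (100 U/ml) with LPS (100 ng/ml) for 1, 4, 12 or 24 h (IFN-γ-primed LPS in the plots), and cells given 10 ng/ml IL-4 or 10 ng/ml IL-13 for 12 h. RAW264.7, an established mouse macrophage line that is 1 clone, gave 2 groups of 2, control and LPS (100 ng/ml) for 4 h. The labels give IFN-γ and LPS together for these hours, while the study calls the cells IFN-γ-primed. How long IFN-γ came before LPS is not given in the sources used here, and the control had neither. IFN-γ with LPS produces the classically activated state of macrophages, and IL-4 or IL-13 the alternatively activated state. The 4 h control served every BMDM comparison, so hours in culture and stimulus cannot be told apart at 1, 12 and 24 h. The study's methods call the BMDM replicates biological, but neither they nor the labels name animals or cultures, so the p-values measure the spread between these samples.

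Most of these genes code for proteins that bind DNA through a row of C2H2 fingers, each a short loop of the chain folded around a zinc ion. Many also carry a KRAB box, a domain that recruits the corepressor Trim28 (KAP1) and, through it, the histone methyltransferase Setdb1, HP1 proteins and histone deacetylases, and that is best known for silencing retroelements. Such genes lie in clusters of duplicated copies, and their messages are in general short-lived and of low abundance. Other members, among them Zfp281, Zfp148 and Zfp207, have no KRAB box and are known as transcription factors or as proteins of RNA processing and cell division.

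Levels are given as CPM without Rn45s, the counts on genes scaled to a library total of 1000000 after the ribosomal precursor gene Rn45s was removed. Each library held 1502618 to 2532496 such counts, so that a member at 1 CPM rested on only a few counts. Rn45s itself took 20.1% to 39.8% of the gene counts. Macrophage markers were detected in every group, Mertk was at 0 in RAW264.7, the erythroid list was at 0 throughout, and the B cell list reached at most 0.511 CPM in a library. The 5 cycling-cell markers summed to 86.7 to 115 CPM in control BMDMs, 204 to 237 CPM at 1 h and 968 to 1063 CPM in control RAW264.7, and the 4 fibroblast markers to 76.9 to 113 CPM in control BMDMs, 56.2 to 73.9 CPM at 1 h and 0 in RAW264.7. The macrophage list itself summed to 24906 to 26744 CPM in control BMDMs, 16646 to 17365 CPM at 1 h and 13147 to 14182 CPM at 4 h. The neutrophil list summed to 9.53 to 18.0 CPM, 24.8 to 35.2 CPM and 20 to 31.3 CPM in the same groups. In it, Mpo was at 0 in the control, at 1 h and at 4 h, and Elane at 0 in the control and at 4 h. The part of these cells in the differences below was not tested, and in bulk samples fewer cells of a type and less RNA per cell cannot be told apart.

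The members were mostly of low abundance. Over the 9 conditions the median member had a mean of 11.9 CPM, 99 members lay under 10 CPM, 110 between 10 and 50 CPM and 21 at 50 CPM or more. The highest was Zfp638 at 137 CPM, a nucleic acid-binding protein linked to silencing of retroviral DNA, and the lowest lay at 2.13 CPM. The top 10 members made up 23.8% of the summed level. Per kilobase of exon, the scale on which genes can be compared with each other, the 228 members with a known length had a median of 2.48 CPM per kb, and the order of the first 4 was Zfp710 (19.3 CPM per kb), Zfp800 (18.2), Zfp263 (17.4) and Zfp706 (17.3).

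The summed level of the 230 members was lower in every group given IFN-γ with LPS than in the control. It was 5108 ± 40.2 CPM in control BMDMs (SD, n = 3, as for all BMDM groups), 3798 ± 51.8 CPM at 1 h, 3123 ± 46.7 CPM at 4 h, 3779 ± 22.5 CPM at 12 h and 3886 ± 81.8 CPM at 24 h. At 4 h the sum was 61.1% of the control. With IL-4 it was 4994 ± 127 CPM and with IL-13 5128 ± 282 CPM, which is 97.8% and 100% of the control and differs from it by less than the SD of the treated group. In RAW264.7 it was 5800 ± 388 CPM without and 5186 ± 177 CPM with LPS (SD, n = 2). A few genes that rise strongly take a growing share of all counts and lower the CPM of every other gene, and TMM scaling, which sets the bulk of genes equal between libraries, removes that share. On the TMM scale the sums were 4664 ± 65.1 CPM in the control, 4036 ± 63.6 CPM at 1 h (86.5% of the control), 4266 ± 159 CPM at 4 h (91.5%), 4406 ± 170 CPM at 12 h (94.5%) and 4152 ± 147 CPM at 24 h (89.0%). The lowest point of the sum therefore lay at 4 h on one scale and at 1 h on the other.

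**Figure D1:**
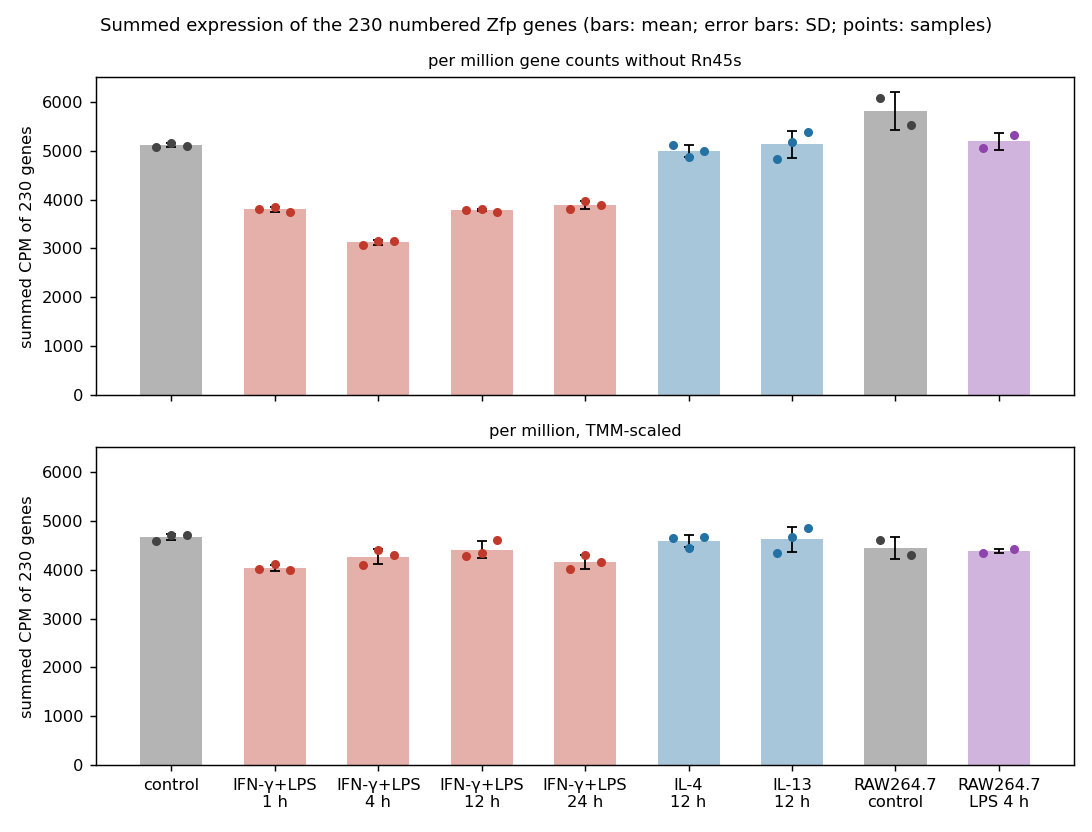
Summed level of the 230 Zfp genes in the 9 conditions, as CPM without Rn45s in one panel and as TMM-scaled CPM in the other; bars are group means, error bars SD, and points single samples. The sum at 4 h is 61.1% of the control without TMM and 91.5% of it with TMM.

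Gene by gene, 87 of the 230 members had their lowest mean CPM among the 7 BMDM groups at 1 h and 98 at 4 h, against 5 in the control. The highest mean lay in the control for 77 members, with IL-13 for 70 and with IL-4 for 38. The median member was at 14.1 CPM in the control, 7.34 CPM at 1 h, 6.24 CPM at 4 h, 9.46 CPM at 12 h and 10.5 CPM at 24 h. These levels and counts are without TMM and so include the shift just described. Without TMM the median log2 fold change of all genes was -0.22 at 1 h and -0.61 at 4 h. The same counts were not made over all genes, so they do not show a trait of the members.

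After 1 h of IFN-γ with LPS, 54 of the 230 members (23.5%) were down-regulated and 9 (3.91%) up-regulated, where 4.84% of the 9568 genes tested were down-regulated and 7.46% up-regulated. A call required an adjusted p of at most 0.01 (edgeR quasi-likelihood test, Benjamini-Hochberg over all genes tested) and an absolute log2 fold change of 1 or more. Of the members, 197 had enough counts to be tested, and the 33 that did not count as not called in every share of members. The median log2 fold change of the tested members was -0.72 and that of all genes tested -0.03, and 161 of the 197 members (81.7%) lay below 0, against 52.3% of all genes. Without TMM the median of all genes was -0.22, and 5 members were up-regulated and 73 down-regulated. The gap between the members' median and that of all genes was -0.69 on either scale. Leaving out TMM shifts all genes of a comparison by nearly the same amount, so this gap could hardly change. Of all genes tested, 6.04% were up-regulated and 7.66% down-regulated without TMM. DESeq2 called 10 members up-regulated and 36 down-regulated, against 4.70% and 2.03% of all genes in that fit, which had another filter on counts. Without the third 1 h sample the down-regulated count was 37.

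**Figure D2:**
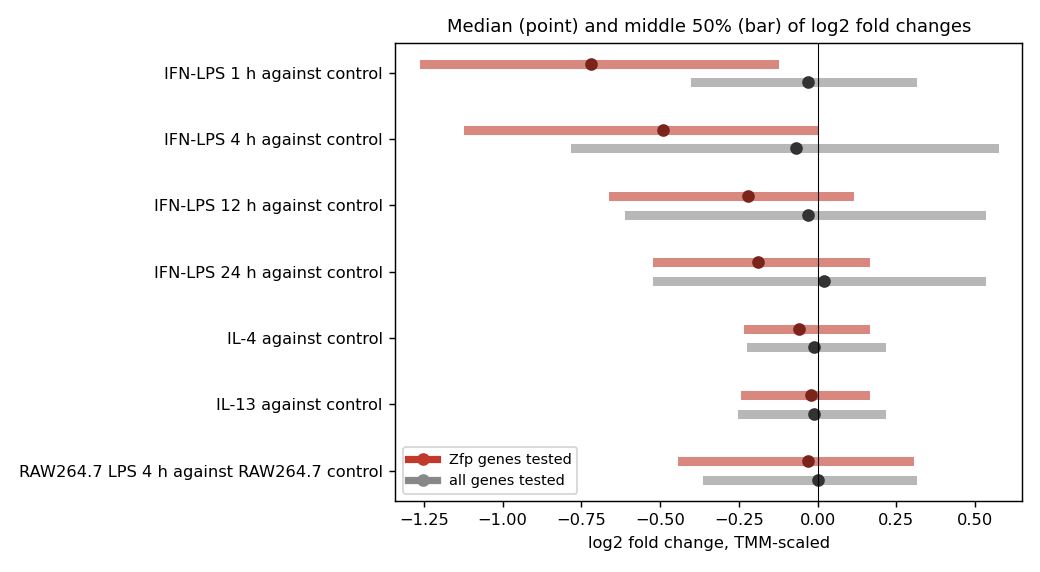
Median log2 fold change (points) and middle 50% (lines) of the tested Zfp genes and of all genes tested, for 7 comparisons fitted with TMM. The Zfp genes lie farthest below all genes at 1 h, with medians of -0.72 and -0.03.

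The members that rose at 1 h were led by genes that code for DNA-binding proteins of several kinds. Zfp263, a SCAN-domain zinc finger protein whose gene lies at chr16:3744093-3750790 on the plus strand (GENCODE M21 on GRCm38, the sequence of mm10), held 60.1, 55.4 and 47.7 CPM in the control samples and 217, 184 and 178 CPM at 1 h. All 3 samples at 1 h lay above all 3 controls, and the log2 fold change was 2.01 (SE 0.119, adjusted p = 1.22e-19). Its level was 87.8, 94.6 and 90.9 CPM at 4 h and 69.8, 71.7 and 73.8 CPM at 24 h, so every later sample stayed above every control. Zfp131, a BTB-domain zinc finger protein (chr13:119765187-119790889, minus strand), held 22.6, 23.2 and 25.6 CPM in the control and 95.7, 120 and 127 CPM at 1 h. The samples did not overlap, and the log2 fold change was 2.45 (SE 0.164, adjusted p = 2.11e-17).

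The other members up-regulated at 1 h included Zfp719, a KRAB gene, and the KRAB gene Zfp558 (chr9:18455575-18478268, minus strand). Zfp719 held 11.9, 17.9 and 6.98 CPM in the control and 35.6, 45.3 and 51.4 CPM at 1 h, without overlap (log2 fold change 2.04, SE 0.219, adjusted p = 7.51e-11). Zfp558 rose from 1.19, 1.79 and 0.582 CPM to 12.2, 15.1 and 18.1 CPM (log2 fold change 3.79, SE 0.416, adjusted p = 1.37e-10). Its control values rest on 1 to 3 counts. Zfp281, a transcription factor known from pluripotent stem cells, had 55.9, 50.1 and 57.0 CPM in the control and 101, 109 and 95.2 CPM at 1 h. It rose by a log2 fold change of 1.09 (SE 0.137, adjusted p = 5.06e-09), which was 0.90 without TMM. Zfp622, known for a part in the maturation of the large ribosomal subunit, rose by 1.10 (SE 0.206, adjusted p = 2.43e-05). Of the 36 members listed for a known role, 4 rose at 1 h (Zfp263, Zfp131, Zfp281 and Zfp622) and 0 fell with TMM. Without TMM Zfp281 and Zfp622 (0.91) were under the cutoff, and so was Zfp275 (1.02 with TMM and 0.83 without).

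The RefSeq promoter windows of 2 of these early risers are shown because both genes were up-regulated at the 1 h time. Each runs 5′ to 3′ on the strand of the gene over the 250 bases before its start (RefSeq, GRCm38.p6), and capitals mark motif matches. In Zfp263 (chr16:3743849-3744098, plus strand) they mark CCAAT, 40 to 36 bases before the start, and the ETS-type CCGGAAGT, 9 to 2 bases before it. In Zfp719 (chr7:43579336-43579585, plus strand) they mark the GAS-type TTCNNNGAA, 150 to 142 bases before the start, and an NRF1-type site (GCGCA and GCGC around 1 free base), 55 to 46 bases before it.
Zfp263: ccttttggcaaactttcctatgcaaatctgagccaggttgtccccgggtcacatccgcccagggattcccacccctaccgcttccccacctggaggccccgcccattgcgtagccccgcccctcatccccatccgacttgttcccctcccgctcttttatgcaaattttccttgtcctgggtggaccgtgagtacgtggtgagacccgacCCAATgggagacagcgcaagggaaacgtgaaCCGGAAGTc
Zfp719: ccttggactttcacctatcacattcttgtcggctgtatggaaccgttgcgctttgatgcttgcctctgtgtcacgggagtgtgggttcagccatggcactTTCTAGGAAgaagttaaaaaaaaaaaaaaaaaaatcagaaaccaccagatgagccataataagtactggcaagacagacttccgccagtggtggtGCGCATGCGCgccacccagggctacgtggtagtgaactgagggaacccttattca

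The members that fell most at 1 h had under 20 CPM in the control on average and under 2 CPM at 1 h. Zfp128 (chr7:12881177-12893422, plus strand) held 10.7, 6.55 and 9.31 CPM in the control and 0.532, 0.604 and 0.476 CPM at 1 h, which is 1 count in each library. The samples did not overlap, and Zfp128 fell by 3.71 on the log2 scale (SE 0.551, adjusted p = 2.79e-07). With 45 counts in the control group and 3 at 1 h, the ratio of CPM was 16.7 (exact 95% interval 5.35 to 83.8, counting error only). Its level was 3.99, 2.78 and 3.61 CPM at 4 h and 7.15, 10.3 and 9.14 CPM at 12 h, where the samples overlapped the control. Zfp157 went from 20.8, 16.1 and 12.8 CPM to 0, 2.42 and 1.90 CPM (log2 fold change -3.29, SE 0.438, adjusted p = 2.12e-08). Zfp553 went from 12.5, 17.3 and 16.9 CPM to 2.13, 1.21 and 1.43 CPM (log2 fold change -3.04, SE 0.397, adjusted p = 1.39e-08). In both, no sample at 1 h reached the lowest control. Zfp563 (-2.97) and Zfp189 (-2.78) followed in size of the log2 fold change. The promoter of Zfp128 (chr7:12880928-12881177, plus strand) is shown for the largest fall. Capitals mark 2 CCAAT boxes read on the other strand (ATTGG, 83 to 79 and 52 to 48 bases before the start) and, overlapping each other, the GAS-type TTCNNNGAA (20 to 12 bases before it) and a ZNF143-type site (ACTACAA and TCC around 1 free base) on the other strand (15 to 5 bases before it).
Zfp128: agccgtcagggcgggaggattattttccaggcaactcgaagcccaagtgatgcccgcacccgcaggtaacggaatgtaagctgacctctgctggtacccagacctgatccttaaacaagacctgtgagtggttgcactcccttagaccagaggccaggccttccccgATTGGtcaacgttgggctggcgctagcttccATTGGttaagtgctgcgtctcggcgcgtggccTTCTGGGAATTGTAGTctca

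Among all RefSeq promoter windows of this length, most of the searched motifs were in a larger share of the members' windows than of all genes' windows. Windows were at hand for 192 members and 27025 genes, and both strands were searched. CCGGAAGT was in 10.9% of the members' and 3.23% of all genes' windows, the ZNF143-type site in 4.69% and 1.08%, the NRF1-type site in 9.38% and 4.23%, TTCNNNGAA in 18.8% and 8.13%, and the cyclic AMP response element TGACGTCA in 4.17% and 1.77%. CCAAT was in 50.5% and 37.5%, an NF-κB-type site (GGGA and TTCC around 2 free bases) in 2.08% and 1.36%, an interferon response-type site (GAAA and GAAA around 2 free bases) in 1.56% and 3.46%, and TATAAA in 7.29% and 14.3%. GAS-type matches lay in 12 of the 43 windows of members down-regulated at 1 h, in 2 of the 9 of members up-regulated and in 18 of the 110 of members tested but not called. Of the down-regulated members with a match, Zfp455, Zfp595, Zfp953, Zfp58 and Zfp65 lie in 1 cluster of gene copies (chr13:67038596-67827002). Such windows are not independent of each other. NF-κB-type matches lay in 1 of the 43 and in 0 of the 9. The windows also differed in composition: over the 237 windows of members and 32851 windows in all, some genes having more than 1, the median was 55.2% G and C with 12 CG dinucleotides for members and 52.4% with 6 for all. CCGGAAGT, TGACGTCA and the NRF1-type site hold CG, and the part of composition in these shares was not tested. A match is a run of letters and not evidence of binding.

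After 4 h, 52 members (22.6%) were down-regulated and 15 (6.52%) up-regulated, while 17.7% of all genes tested were down-regulated and 16.1% up-regulated. The members' median log2 fold change was -0.49 and that of all genes -0.07. The scaling mattered most at this time, since without TMM the median of all genes was -0.61. In that fit 91 members were down-regulated and 4 up-regulated, where 32.8% of all genes tested were down-regulated and 11% up-regulated. Up-regulated members thus made up 22.4% of the calls with TMM and 4.21% without. The gap between the members' median and that of all genes was -0.41 on either scale, and it too could hardly change with the scaling.

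Zfp800 (chr6:28239927-28398005, minus strand) reached the highest CPM of the up-regulated members at 4 h. It held 38.6, 35.2 and 37.3 CPM in the control, 94.6, 90.0 and 90.9 CPM at 1 h, 209, 274 and 254 CPM at 4 h, 136, 166 and 161 CPM at 12 h and 61.9, 92.0 and 97.9 CPM at 24 h. Every stimulated sample lay above every control, and the log2 fold change at 4 h was 3.26 (SE 0.146, adjusted p = 1.05e-22). Zfp558 reached 18.6, 25.1 and 18.1 CPM at 4 h, a log2 fold change of 4.57 (SE 0.386, adjusted p = 1.53e-14). Zfp319 held 18.4, 26.2 and 11.6 CPM in the control, 13.3, 8.46 and 9.99 CPM at 1 h and 44.6, 28.4 and 42.7 CPM at 4 h, so its samples at 4 h lay above the others. Its log2 fold change at 4 h was 1.55 (SE 0.215, adjusted p = 2.60e-08). Zfp263 (1.27), Zfp131, Zfp281 (1.45), Zfp382 (1.51), Zfp945 (1.51), Zfp213 (1.44), Zfp513 (1.41), Zfp719 (1.06) and Zfp568 (1.01), the last known for repressing an Igf2 promoter, also passed the test at 4 h with TMM, but none of these 9 did without it. Counting without regard to strand, which drops reads that another gene overlaps, gave Zfp213 70.8% of its count on the gene strand, so its value is uncertain. The value of Zfp382 is a description, since without its 4 h counts it would lie under the limit for members.

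Zfp811, a gene of the cluster at chr17:32765496-33631779 (chr17:32795676-32809931, minus strand), was the one member with no count in the BMDM controls. It had 0 counts in each of the 3 controls, 0, 1 and 3 counts at 1 h, 6, 8 and 6 counts at 4 h, 49, 39 and 48 counts at 12 h and 60, 65 and 73 counts at 24 h. Every sample from 4 h on lay above every control and every sample at 1 h. Against a floor of 3 counts over the control group, its level was at least 6.80-fold higher at 4 h (4.02 ± 0.422 CPM), at least 39.7-fold higher at 12 h (23.5 ± 1.42 CPM) and at least 48.9-fold higher at 24 h (28.9 ± 0.989 CPM). Of its 358 counts in BMDMs, 334 came from 12 and 24 h, so Zfp811 is a member only through groups where it is high, and these values are a description, as are its calls among the counts of up-regulated members. No count was found with IL-4 or IL-13. Its promoter (chr17:32809932-32810181, minus strand) is shown because of this pattern, and the capitals mark CCAAT, 57 to 53 bases before the start.
Zfp811: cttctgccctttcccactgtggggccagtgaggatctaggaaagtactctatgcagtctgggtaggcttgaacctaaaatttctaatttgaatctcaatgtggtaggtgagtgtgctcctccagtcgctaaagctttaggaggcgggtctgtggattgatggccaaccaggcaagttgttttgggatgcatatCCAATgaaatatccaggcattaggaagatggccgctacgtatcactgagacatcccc

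The falls at 4 h reached some abundant members. Zfp704 (chr3:9427020-9610085, minus strand), whose protein has no finger of the C2H2 pattern searched, held 155, 176 and 178 CPM in the control. It had 84.5, 86.4 and 99.0 CPM at 1 h, 2.0, 7.24 and 7.82 CPM at 4 h, 22.0, 20.6 and 13.5 CPM at 12 h and 29.8, 33.1 and 21.7 CPM at 24 h. No stimulated sample reached a control, and Zfp704 fell by 4.32 on the log2 scale at 4 h (SE 0.217, adjusted p = 4.46e-22).

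Zfp395 (chr14:65358389-65398930, plus strand), first described as a factor that binds papillomavirus and huntingtin promoters, had 34, 52 and 45 counts in the controls, 25, 18 and 15 at 1 h, 0 in all 3 samples at 4 h, 0, 0 and 1 at 12 h and 5, 2 and 4 at 24 h. The groups at 1 h and later lay wholly below the control. At 4 h it was at least 42.7-fold lower, against a floor of 3 counts over the group (0.605 CPM), with an adjusted p of 9.09e-13. Zfp652, a partner of the corepressor CBFA2T3, went from 29.7, 27.4 and 28.5 CPM to 2.66, 1.11 and 3.01 CPM at 4 h, again without overlap (log2 fold change -3.13, SE 0.324, adjusted p = 9.22e-12). Zfp398, Zfp810, Zfp608 (log2 fold change -3.16) and Zfp41 also fell, each with a mean under 1 CPM at 4 h. Zfp398 went from 47 counts to 1 (ratio of CPM 45.9, exact 95% interval 7.85 to 1852), Zfp810 from 65 to 3 (21.2, 6.93 to 105) and Zfp41 from 42 to 3 (13.7, 4.37 to 69.0). Zfp703, a corepressor of the nuclear matrix, fell by 1.15 (adjusted p = 2.66e-05), and Zfp91, a ubiquitin ligase linked to the noncanonical NF-κB pathway, by 1.06 (adjusted p = 2.03e-04). Zfp703 was under the cutoffs in 2 of 25 settings and Zfp91 in 3 of 25. Zfp932, which silences endogenous retroviruses, fell by 2.20 (SE 0.588, adjusted p = 0.00123).

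At 12 h, 21 members (9.13%) were down-regulated and 7 (3.04%) up-regulated, against 14.1% and 13.3% of all genes tested. At 24 h, 11 members (4.78%) were down-regulated and 6 (2.61%) up-regulated, against 11.9% and 12.2% of all genes. The members' share of calls was thus under that of all genes in both directions at both times, with medians of -0.22 and -0.19. Without TMM, 44 members were down-regulated at 12 h and 26 at 24 h, against 21.4% and 16.4% of all genes. Zfp811, Zfp558, Zfp658, Zfp719 and Zfp800 were up-regulated at both times, and Zfp395, Zfp704 and Zfp41 were among the largest falls at both. Zfp658 held 2.97, 4.17 and 4.66 CPM in the control and 17.9, 18.8 and 14.4 CPM at 12 h, without overlap (log2 fold change 2.39, SE 0.310, adjusted p = 4.83e-09). Zfp692 fell at 12 h, from 11.3, 5.96 and 7.57 CPM to 0.511, 1.71 and 1.93 CPM, without overlap (log2 fold change -2.22, SE 0.493, adjusted p = 1.41e-04).

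**Figure D3:**
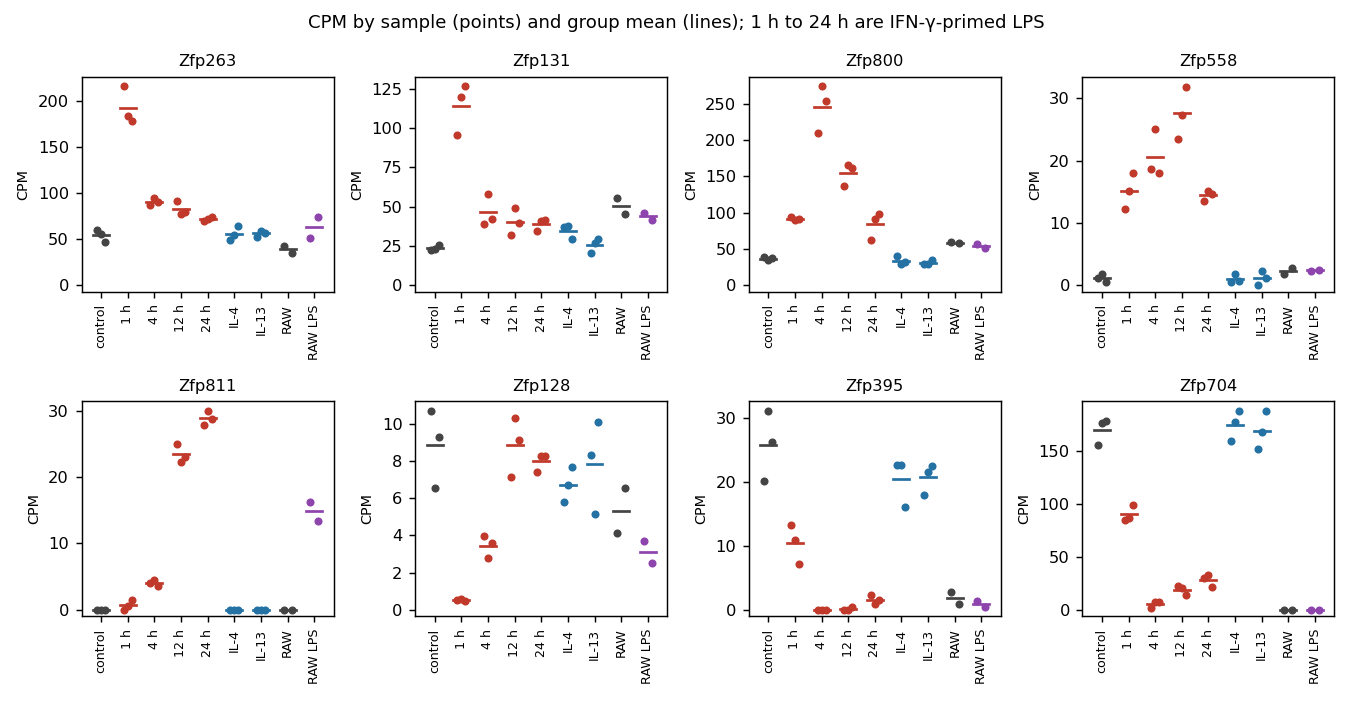
Level of 8 named members in each sample (points, CPM without Rn45s) with the group means, by condition. Zfp263 and Zfp131 are highest at 1 h, Zfp800 at 4 h and Zfp811 at 24 h, while among the BMDM groups Zfp704 and Zfp395 are lowest at 4 h and Zfp128 at 1 h.

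Successive times were compared as well. From 1 to 4 h, 27 members rose and 14 fell (background 11.4% and 11.8% of genes), with a median log2 fold change of 0.17. Without TMM the counts were 13 and 29 (7.84% and 19.6% of genes) and the median -0.17, so the direction of the balance depends on the scaling. From 4 to 12 h, 19 members rose and 6 fell (9.33% and 9.18% of genes), with a median of 0.27, and without TMM 32 rose and 3 fell (13.5% and 6.33% of genes). Of those that rose, Zfp788 (log2 fold change 2.87), Zfp932 (2.62) and Zfp229 (2.17) went from 0.794, 1.18 and 1.18 CPM to 7.25, 8.84 and 6.41 CPM. Zfp382 rose from 1 to 4 h and fell from 4 to 12 h, with 1.59, 1.21 and 1.43 CPM, then 9.98, 6.12 and 7.82 CPM, then 0.511, 1.71 and 0.963 CPM. Without its 4 h counts it would lie under the limit for members, so these values are a description. Zfp598, the ubiquitin ligase that marks stalled ribosomes, had a log2 fold change of 1.01 from 1 to 4 h (23.5 to 38.0 CPM), which was under the cutoff in 6 of 25 settings and 0.67 without TMM, and fell by 1.30 from 4 to 12 h (to 18.0 CPM). From 12 to 24 h 1 member rose (Zfp692, log2 fold change 2.43) and 1 fell (Zfp558, -1.02), against 1.43% and 2.37% of genes.

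**Figure D4:**
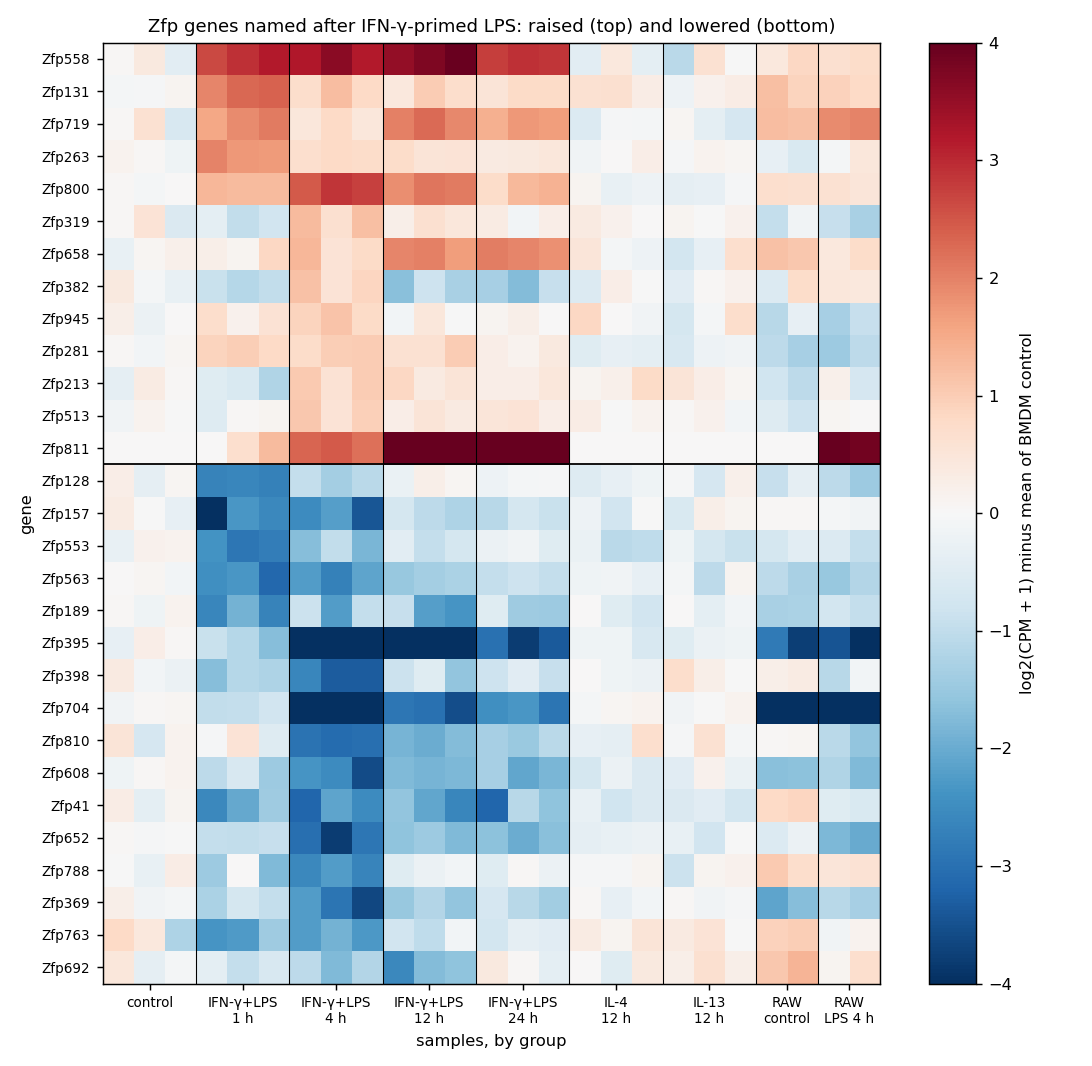
Level in the 25 samples of the members named for IFN-γ with LPS against the control at 1 to 24 h. Values are log2(CPM + 1) minus the mean of the BMDM controls, with 1 row per gene and 1 column per sample. Zfp704 and Zfp395 are lower at 4 h in all 3 samples, and Zfp811 is higher from 4 h on and in both RAW264.7 samples with LPS.

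The members were then split by features that the choice of members had not used. A coding sequence was found for 228, and 126 of these had a KRAB box by a residue score. Among the 126, 39 (31.0%) were down-regulated and 3 up-regulated at 1 h, with a median log2 fold change of -0.99. Among the 102 without the box, 15 (14.7%) were down-regulated and 6 up-regulated, with a median of -0.49. At 4 h 26.2% and 18.6% were down-regulated, at 12 h 5.56% and 13.7%, and at 24 h 1.59% and 8.82%. Of all genes tested, 4.84%, 17.7%, 14.1% and 11.9% were down-regulated at these times, close to the share of members without the box at 4 and 12 h. Only 102 of the 126 and 93 of the 102 had enough counts to be tested. Untested members count as not called in the class shares, which lowers that of KRAB genes more. The difference between the classes was not tested. From 4 to 12 h the median log2 fold change was 0.52 for KRAB genes and 0.00 for the others. KRAB genes had a median of 12 fingers and the others 7.5. Of 30 genes of the Zbtb family, which pair such fingers with a BTB domain, 5 were down-regulated and 0 up-regulated at 1 h (4.84% and 7.46% of all genes) and 8 and 2 at 4 h (17.7% and 16.1%).

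By mean CPM over the 9 conditions, the falls at 1 h lay among members of low and middle level. That mean includes the stimulated groups, so a fall itself can move a member to a lower class. The 33 members without enough counts to be tested all lay under 10 CPM, so the shares here are of members tested. At 1 h, 28 of the 66 tested under 10 CPM (42.4%), 26 of the 110 between 10 and 50 CPM (23.6%) and 0 of the 21 at 50 CPM or more were down-regulated, against 10.5%, 4.83% and 2.33% of all genes tested in these classes. At 4 h the shares were 36.4%, 22.7% and 14.3% of members and 25.3%, 20.2% and 11% of all genes. Over all 99 members under 10 CPM, the shares would be 28.3% at 1 h and 24.2% at 4 h.

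**Figure D5:**
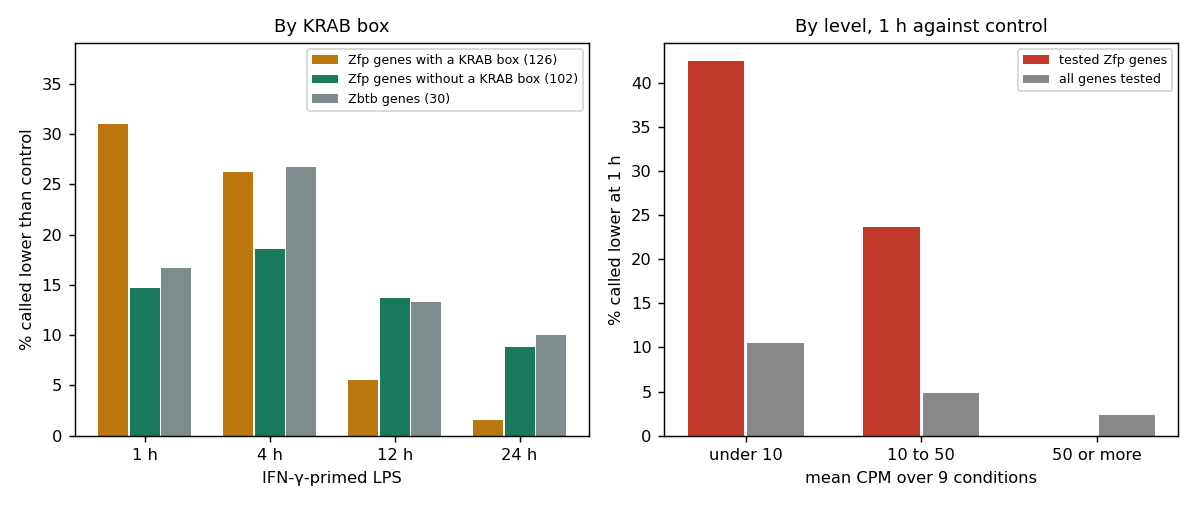
Percent of members down-regulated, by class. One panel compares KRAB genes, members without a KRAB box and Zbtb genes at 1 to 24 h, and the other compares tested members with all genes tested by level class at 1 h. KRAB genes are at 31.0% at 1 h and 1.59% at 24 h.

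Most members in gene clusters had a KRAB box. Chromosome 7 carried 54 members, chromosome 17 carried 30 and chromosome 13 carried 23. With a gap of at most 500 kb and at least 4 members, 12 clusters held 95 members, 76 of them with a KRAB box, against 50 of the 133 members outside. In the clusters 33 members (34.7%) were down-regulated at 1 h, and outside them 21 (15.8%). At 4 h the shares were 20% and 24.8%. The cluster at chr13:67038596-67827002 held 15 members, all with a KRAB box, of which 8 were down-regulated and 1 up-regulated at 1 h (median log2 fold change of the 12 tested -1.36) and 2 and 0 at 4 h. The cluster at chr17:21008903-23564238 held 17 members, with 6 down-regulated and 0 up-regulated at 1 h and 8 and 2 at 4 h, where 4.84% and 17.7% of all genes were down-regulated. Copies in a cluster resemble each other in sequence, and reads that match more than 1 copy could not be assigned to either.

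A list of 26 genes was followed that holds corepressors of KRAB proteins, such as Trim28 and Setdb1, and other genes linked to silencing. Trim28 held 72.1 ± 7.53 CPM in the control, 54.3 ± 8.28 CPM at 1 h and 31.6 ± 5.28 CPM at 4 h, and did not pass the cutoffs at either time (log2 fold change -0.21, adjusted p = 0.280, and -0.67, adjusted p = 6.47e-04). At 1 h 1 gene of the list fell, the DNA methyltransferase Dnmt3a (log2 fold change -1.04), and 0 rose. Of all genes tested, 4.84% fell and 7.46% rose at that time. At 4 h 4 of the list rose and 7 fell, against 16.1% and 17.7% of all genes, and without TMM 2 rose and 12 fell, Trim28 among them (-1.20). Daxx, a histone H3.3 chaperone, rose by 4.03 (20.9 ± 2.17 to 239 ± 8.41 CPM, adjusted p = 1.13e-29). Morc3 (1.82) rose as well on either scale, while Pphln1 (1.24) and Hdac1 (1.10) were under the cutoff without TMM (0.71 and 0.57). The maintenance methyltransferase Dnmt1 fell by 3.08 (94.1 to 7.64 CPM), and Setdb1, the methyltransferase that Trim28 recruits, fell by 1.19.

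With IL-4, 1 member was up-regulated and 1 down-regulated, and the same was true with IL-13, at the study's lower cutoff for these cytokines, an absolute log2 fold change of 0.7 or more. Of all genes tested, 2.22% were up-regulated and 1.64% down-regulated with IL-4, and 2.98% and 2.38% with IL-13. The members' medians were -0.06 and -0.02. Zfp609, a partner of the cohesin loader Nipbl, held 24.4, 20.9 and 23.3 CPM in the control samples, 52.1, 44.5 and 44.2 CPM after IL-4 and 59.1, 54.1 and 59.1 CPM with IL-13. All treated samples lay above all controls, with log2 fold changes of 1.03 (SE 0.169, adjusted p = 5.81e-06) and 1.29 (SE 0.163, adjusted p = 1.06e-08). Zfp275 held 63.6, 59.0 and 58.2 CPM in the control samples, 40.0, 33.5 and 35.2 CPM after IL-4 and 35.3, 36.5 and 34.9 CPM with IL-13, again without overlap. Its log2 fold changes were -0.73 (SE 0.147, adjusted p = 2.09e-04) and -0.80 (SE 0.147, adjusted p = 3.50e-05). Both comparisons used the same controls. In IFN-γ with LPS, Zfp275 was at 106, 91.2 and 123 CPM at 1 h and 24.0, 28.4 and 19.9 CPM at 4 h, above and then below all controls. Leaving out the second IL-4 sample lost the call of Zfp275 with IL-4, and leaving out the first IL-13 sample gave 3 rises and 2 falls with IL-13. There were also 2 falls with IL-13 without the first control and 2 rises without the third control. Between IL-13 and IL-4, 0 members passed in edgeR's test in either direction (0.0540% and 0.0108% of genes), 7 had an unadjusted p under 0.05 there and 1 did with DESeq2.

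Compared at 12 h, 9 members were higher and 18 lower with IFN-γ and LPS than with IL-4 (13.1% and 12.3% of genes tested), and 8 were higher and 21 lower than with IL-13 (12.8% and 12.6% of genes). Without TMM 38 and 47 members were lower, against 20.4% and 21% of all genes tested. The rises against IL-13 were led by Zfp811 (0 counts with IL-13), Zfp558 (27.6 against 1.13 CPM, log2 fold change 4.84), Zfp719 (51.4 against 9.17 CPM, 2.86) and Zfp800 (155 against 31.1 CPM, 2.68).

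In RAW264.7 cells LPS for 4 h up-regulated 1 member and down-regulated 9, against 5.82% and 5.25% of the 9406 genes tested, with a median log2 fold change of -0.03. Zfp811 was again the one that rose, with 0 counts in both controls and 35 and 32 counts with LPS, at least 21.3-fold higher (14.8 ± 2.04 CPM, adjusted p = 1.10e-19). Zfp367 fell from 95.5 and 74.9 CPM to 28.3 and 18.4 CPM, without overlap (log2 fold change -1.70, SE 0.165, adjusted p = 3.60e-23). Zfp760 (-1.76), Zfp652 (-1.49), Zfp931 (-1.46), Zfp810 (-1.39) and Zfp41 (-1.32) also fell. With 2 samples a group these counts were unstable: the falls were 16 without TMM, 1 with DESeq2 and 4 without the second LPS sample or the first control, and the rises 4 without the first control and 2 without the second control or the first LPS sample. Of all genes tested, 8.04% fell without TMM and 1.75% with DESeq2. Zfp800 (0.06), Zfp131 (-0.03) and Zfp263 (0.87) did not pass here. The stimulus in BMDMs held IFN-γ as well as LPS, so the values of the cell types stand side by side and their difference was not tested.

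Control RAW264.7 cells had 43 members lower and 16 higher than control BMDMs, where 25.0% of the 10612 genes tested were lower and 22.5% higher. The limit on summed BMDM counts favours genes expressed in BMDMs, so these counts are a description. The highest rises were Zfp346 (35.0 against 6.30 CPM, log2 fold change 2.21), Zfp930 (42.1 against 7.70 CPM, 2.19) and Zfp330 (153 against 30.7 CPM, 2.06). Zfp207, a spindle assembly protein, was at 229 against 79.0 CPM, and Zfp809, which silences retroviruses through their primer binding site, at 53.3 against 15.4 CPM. Zfp704 had no count in any RAW264.7 sample, at least 244-fold lower than its 170 ± 12.8 CPM in BMDMs. Without TMM 29 members were higher and 31 lower, against 28.0% and 20.8% of genes. RAW264.7 cells also differed in cycling and fibroblast markers as given above, in medium and in strain.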

How the data were processed

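RNA-seq counts of 25 samples were used, and groups were taken from the labels. The authors sequenced strand-specific libraries after rRNA depletion by their methods (the labels name polyA RNA), trimmed reads with Trimmomatic 0.33, aligned them to mm10 with STAR 2.5.1 and deposited raw read counts per gene symbol, without normalization. The annotation is not given in the sources used here. STAR's gene counts take only uniquely aligned reads. Rows that name no gene held 76.6% to 80.2% of the counts and were left out, as was Rn45s. Depth on genes was 2378639 to 3357300 counts a sample (median 2718848). Replicate pairs differed by more than sampling noise.

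Counts on the gene strand were fitted in R 4.3.3 with edgeR 4.0.16 (filterByExpr, TMM, robust quasi-likelihood, Benjamini-Hochberg over all genes tested), with 15 samples for the time course, 9 for IL-4 and IL-13, 21 for the 12 h comparisons, 4 for RAW264.7 and 25 for RAW264.7 against BMDMs. SE is the size of the log2 change divided by the root of F, with a prior count of 0.125. DESeq2 1.42.0, RLE size factors, library size without TMM, other filters, Rn45s kept, unstranded counts, other samples in the fit, a replicate block and leaving out each sample were alternatives. Figures and tables used Python 3.11.15, pandas 2.3.3 and matplotlib 3.10.9. The scripts were tested on simulated data.

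The members and lists were chosen with earlier results of these data known. Named members are the 10 of highest mean CPM, those with a role known from textbooks, and, among members past the cutoffs whose groups do not overlap and whose higher group has a mean of at least 5 CPM, the 10 of largest change in each direction at 4 h and the 5 elsewhere. Members were matched to GENCODE M21 by symbol (228 of 230). Coding sequences were translated in place of a protein table that was not at hand, a choice made after the files were seen, as were the cluster rule, levels per kb and the gap between medians. A finger is C, 2 residues, C, 12 residues, H, 3 to 5 residues, H. A KRAB box needs 8 of 14 fixed residues in a window of 30. With 7 residues, 127 members had it. Clusters join members at most 500 kb apart.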

Additional observations from a re-analysis of the deposited data

Results flagged for a closer look

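In the time course, several members differed between successive times of IFN-γ with LPS by a direct test (edgeR quasi-likelihood, Benjamini-Hochberg, cutoffs as above). From 1 to 4 h the log2 fold changes of the 5 largest rises were 2.75 for Zfp382, 2.18 for Zfp319, 2.17 for Zfp213, 2.15 for Zfp324 and 1.99 for Zfp952. Zfp382 had 78 BMDM counts outside 4 h, under the limit for members, so its values here are a description. Those of the 5 largest falls were -7.24 for Zfp395 (a fitted value with 0 counts at 4 h), -3.89 for Zfp810 (3 counts at 4 h), -3.60 for Zfp704, -2.33 for Zfp652 and -2.0 for Zfp369. From 4 to 12 h Zfp788 (2.87), Zfp932 (2.62), Zfp811 (2.31, a member only through its counts at 12 and 24 h), Zfp229 (2.17) and Zfp157 (1.85) rose, and Zfp382 (-3.07), Zfp628 (-1.34), Zfp598 (-1.30), Zfp609 (-1.19) and Zfp945 (-1.07) fell. From 12 to 24 h Zfp692 rose by 2.43 and Zfp558 changed by -1.02.

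Counts on the strand opposite the genes, which the comparisons did not use, stood out at Zfp276. There they were 5.29 ± 1.69 CPM (SD, n = 3, of the gene-strand total without Rn45s) at 12 h and 0.590 ± 0.595 CPM in the control.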

How the results depend on the processing

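Of the pairs of a named member and a comparison, 208 passed the cutoffs. No direction reversed among these 208, and 73 of them fell short of the cutoffs in at least 1 setting. Pairs picked for a large change in the same data could hardly reverse, so the absence of reversals is no support. Without TMM, the counts moved toward falls at every time of IFN-γ with LPS against the control, from 1 to 4 h, at 12 h against IL-4 or IL-13 and in RAW264.7 with LPS, and toward rises from 4 to 12 h. The counts of members higher were then 5 at 1 h, 4 at 4 h, 13 from 1 to 4 h, 32 from 4 to 12 h and 29 in RAW264.7 against BMDM controls. The counts lower were 91 at 4 h, 44 at 12 h, 26 at 24 h, 29 from 1 to 4 h, 3 from 4 to 12 h, 0 from 12 to 24 h, 38 at 12 h against IL-4, 47 against IL-13 and 16 with LPS in RAW264.7. Shares of all genes without TMM stand with these comparisons above. From 12 to 24 h, 1.91% of all genes fell without TMM. With DESeq2, 12 members rose from 4 to 12 h, 2 fell from 12 to 24 h and 1 fell in RAW264.7 with LPS. The shares of all genes in those fits were 4.74%, 1.54% and 1.75%. From 12 to 24 h, the rise was lost (0) with a mean of at least 10 counts, and 2 fell with Rn45s kept or with all 21 BMDM samples fitted. The causes were not tested beyond the scaling itself.

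Leaving out each sample in turn gave, for higher and lower, 8 to 10 and 37 to 58 at 1 h, 13 to 15 and 43 to 54 at 4 h, 7 to 9 and 18 to 25 at 12 h, 6 to 9 and 10 to 14 at 24 h, 18 to 28 and 12 to 14 from 1 to 4 h, 13 to 21 and 4 to 7 from 4 to 12 h, 1 to 2 and 0 to 2 from 12 to 24 h, 1 to 1 and 0 to 1 with IL-4, 1 to 3 and 1 to 2 with IL-13, 8 to 9 and 14 to 20 against IL-4, 7 to 9 and 15 to 24 against IL-13, 1 to 4 and 4 to 8 with LPS in RAW264.7, and 15 to 18 and 39 to 43 for RAW264.7 against BMDM controls. From 12 to 24 h, 2 fell without the first 12 h sample or the second or the third 24 h sample, 0 without the third 12 h or the first 24 h sample, and 2 rose without the second or the third 12 h sample. Replicate numbers did not pair the samples, since samples of 1 number deviated together no more than others (mean r = 0.0220 and -0.0110 over 8930 genes in BMDMs). With a replicate block 9 members rose and 54 fell at 1 h, 15 and 52 at 4 h, and no count left 1.5 times its value. Depth limits members under 10 CPM, which rest on few counts.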
